A study of Ovis aries with 16 samples.

Results

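The genes of the major histocompatibility complex (MHC) were examined in the hypothalamus of late-gestation fetal sheep of the Suffolk breed at 24 h, counted from the start of 30 min of maternal hypoxia or of the matching normoxia. Members were the array features whose description mentions MHC or histocompatibility, or whose gene name begins with OLA, Ovar or OVAR. They numbered 27 of 15008, of which 15 read class I, 11 read class II and 1 read MR1, a class I related gene. Each feature is a probe of 60 bases, and several probes read alleles or records of the same locus, so the probes are not separate genes. The fetuses formed 4 groups, and each array held RNA from a different fetus. Normoxia control fetuses (NC, n = 3) received saline and stayed normoxic, and normoxia plus ketamine fetuses (NK, n = 4) received ketamine in place of saline. Hypoxia control fetuses (HC, n = 5) received saline before 30 min of maternal hypoxia, and hypoxia plus ketamine fetuses (HK, n = 4) received ketamine before the same hypoxia. All injections were intravenous, and all groups recovered in normoxia for 23.5 h. Ketamine, an anesthetic, acts chiefly by blocking glutamate receptors of the NMDA type. Fetuses were mostly twins and each pregnancy was assigned to normoxia or hypoxia, and the labels name no littermates.

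Class I molecules sit on nearly all nucleated cells and show peptides cut inside the cell by the proteasome to cytotoxic T cells. Their heavy chain is held at the surface by beta-2-microglobulin. Class II molecules are pairs of an alpha and a beta chain, DR or DQ in sheep, and show peptides from engulfed material to helper T cells. In brain, class II is found chiefly on microglia, the resident macrophages, and on macrophages at vessels and meninges. Interferons raise class I, and interferon gamma raises class II through the regulator CIITA. Sheep MHC genes are among the most variable genes of the genome, and related loci have near-identical stretches.

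Levels are log2 signal relative to the 75th percentile of the array, so 0 is the level of a fairly bright feature, and a difference of 1 is a doubling. A probe was tested where it stood well above background on at least 3 arrays, which held for 12246 probes and for 25 of the 27 members. DYA, an alpha chain of the ruminant class II DY molecule, was well above background on 0 arrays, and MR1, which shows vitamin metabolites to mucosal T cells, on 2 arrays, both of HC, where it stood at -4.95 and -4.83. On single arrays, 71.7% to 80.6% of the features stood well above background. Of 13 listed hypothalamic genes 7 were on the array and all 7 were tested, with somatostatin (SST) at a mean of 4.32 in NC and oxytocin (OXT) at 2.75. The tissue is a mixture of cells, so fewer cells of a type and less RNA per cell cannot be told apart.

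The probes themselves limit how finely loci can be read, and 2 pairs of near-identical probes show this. The first pair is class I, the record U03092 (allele ShB) and OVAR probe A_70_P016117, both ending in the letters of a stop codon. Capitals mark the bases that differ within the pair.
U03092: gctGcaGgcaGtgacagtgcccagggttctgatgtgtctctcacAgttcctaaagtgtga
OVAR A_70_P016117: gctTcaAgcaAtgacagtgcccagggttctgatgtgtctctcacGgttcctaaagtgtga
Counted from the 5′ end of the probe, U03092 against OVAR differs by G4T, G7A, G11A and A45G. Over the 16 arrays these signals had a Pearson r of 0.98. The second pair is class II, the DQA2 record M93431 and the OVAR-DQA1 probe A_70_P053731.
M93431 (DQA2): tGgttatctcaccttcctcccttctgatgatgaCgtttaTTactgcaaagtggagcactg
OVAR-DQA1 A_70_P053731: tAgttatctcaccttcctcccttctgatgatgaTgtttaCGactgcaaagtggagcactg
Here the differences are G2A, C34T, T40C and T41G, and r over the 16 arrays was 0.63, or 0.82 with the mean of each slide subtracted. Also shown are the other OVAR probe, which shares no long stretch with the first and still followed it, and 2 alleles of DRB1 whose probes read different stretches.
OVAR A_70_P001716: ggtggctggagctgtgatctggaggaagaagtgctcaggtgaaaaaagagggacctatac
DQ659131 (DRB1G1 allele): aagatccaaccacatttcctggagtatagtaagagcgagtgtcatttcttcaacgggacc
DQ659127 (DRB1C1 allele): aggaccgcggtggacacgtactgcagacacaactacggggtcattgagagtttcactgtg

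By shared stretches of at least 15 bases, the 15 class I probes fell into a set of 5 (M34672 to M34676, of which all but M34676 are described as the 3′ end of a gene), a set of 6 (U03092, AM181175, OVAR A_70_P016117, AJ874681, AJ874683 and AJ874675) and 4 that shared no such stretch. Within the set of 6, r over the 16 arrays lay between 0.89 and 0.997, and AJ874681 and AJ874675, which match at 57 of 60 positions, had r = 0.99. Within the set of 5 it lay between 0.45 and 0.92. Probes with shared stretches can bind the same RNA, and their likeness is therefore not independent evidence.

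Mean class I levels ran from -3.17 for EF489531 to 4.96 for M34676, which was at the 98.4th percentile of tested probes. Class II means ran from -5.03 for DQ659131 to -0.50 for M73983, the record of DRA, the alpha chain of DR. Different probes bind with different strength, so these ranges describe signal and not copies of RNA.

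After hypoxia without ketamine, all 15 class I probes had a higher mean in HC than in NC, with a median log2 difference of 1.15 (0.31 to 1.54). Of these, 3 were called (an unadjusted p under 0.05 in limma) and none was called lower, against 4.35% of all tested probes called higher. The 3 that rose were AJ874681, AJ874675 and M34675, and the first 2 of them share nearly all of their sequence. None passed after adjustment over all tested probes, and the smallest adjusted p among class I was 0.58. After hypoxia under ketamine, all 15 were again higher in HK than in NK, with a median of 1.21 (0.84 to 1.83). There 5 rose, against 2.39% of all tested probes called higher, and the smallest adjusted p was 0.35. These 2 comparisons hold different fetuses but are not independent repeats: they share the slides and the estimate of the spread, and whether fetuses of one were littermates of the other is not given.

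**Figure D1:**
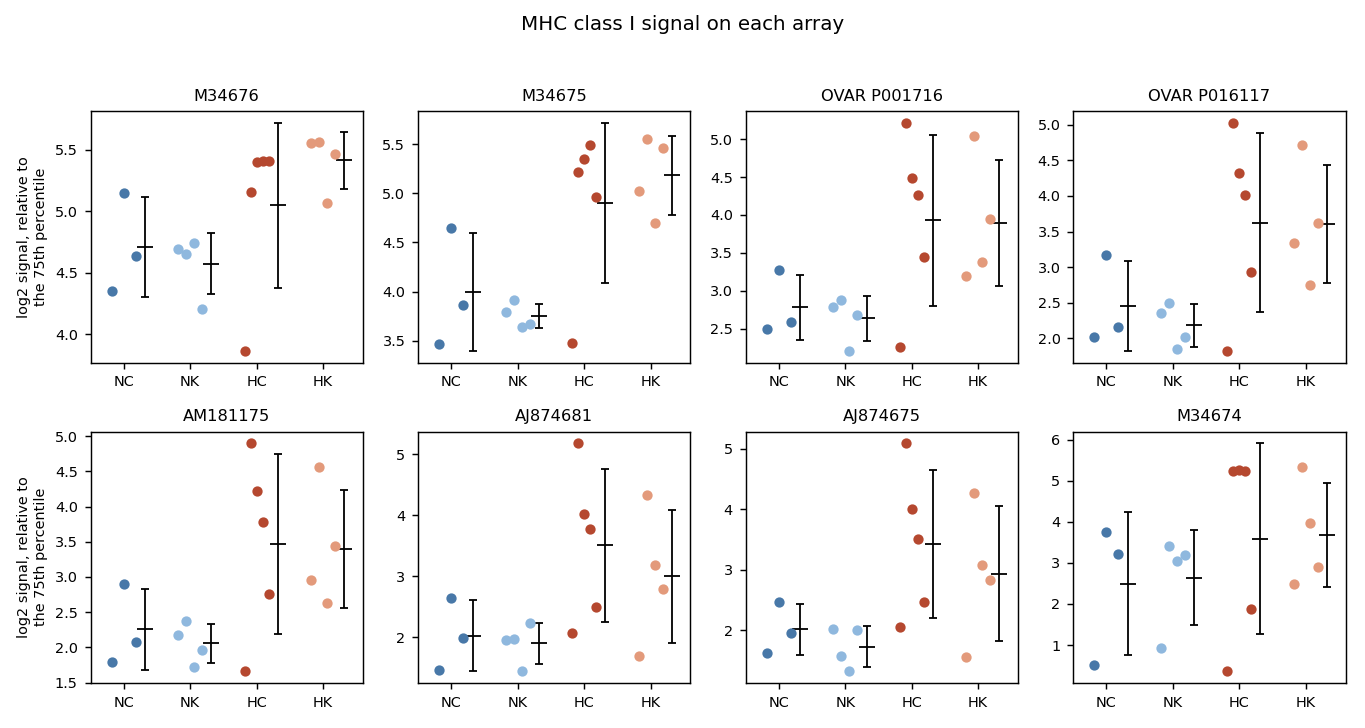
Class I signal on each array, as log2 relative to the 75th percentile of the array, for the 7 probes called in a comparison between groups and for M34674, the class I probe with the widest spread within groups. Points are fetuses in the order of their replicate numbers, and bars are the mean and SD of the group; the HC1 point is the lowest of HC in each panel.

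M34675, recorded as the 3′ end of a class I gene, stood at 3.47, 4.65 and 3.86 in NC and at 3.79, 3.91, 3.64 and 3.67 in NK. The HC arrays gave 3.48, 5.22, 5.34, 5.49 and 4.97, and the HK arrays 5.02, 5.55, 4.70 and 5.46. Every HK array was above every NK array, and 4 of 5 HC arrays were above every NC array, with HC1 at the level of the lowest NC array. The difference was 0.91 ± 0.39 (SE) for HC against NC (called, adjusted p = 0.58) and 1.43 ± 0.38 for HK against NK (called, adjusted p = 0.35). Its spots were saturated on HC2, HC3, HC4 and HK2, where the reading is a lower limit.

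M34676, the brightest member, stood at 4.35, 5.15 and 4.63 in NC and 4.69, 4.65, 4.75 and 4.21 in NK. In HC it read 3.86, 5.16, 5.40, 5.41 and 5.41, and in HK 5.56, 5.56, 5.07 and 5.47. The HK and NK arrays did not overlap, and the difference of 0.84 ± 0.30 was called (adjusted p = 0.445). Against NC, HC differed by 0.34 ± 0.31 and was not called (adjusted p = 0.834), with HC1 below all NC arrays. This probe was saturated on 7 arrays, all of them hypoxic (4 HC and 3 HK).

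OVAR, the class I gene that the annotation names, was read by 2 probes with r = 0.98. Probe A_70_P001716 stood at 2.49, 3.28 and 2.58 in NC, 2.79, 2.87, 2.20 and 2.68 in NK, 2.26, 5.21, 4.48, 4.26 and 3.44 in HC, and 3.20, 5.04, 3.38 and 3.95 in HK. HK again lay wholly above NK (1.26 ± 0.54, called, adjusted p = 0.524), while HC against NC missed the threshold (1.15 ± 0.55, adjusted p = 0.639). Probe A_70_P016117 stood at 2.02, 3.18 and 2.15 in NC, 2.35, 2.50, 1.85 and 2.02 in NK, 1.83, 5.03, 4.32, 4.01 and 2.93 in HC, and 3.34, 4.71, 2.75 and 3.62 in HK. Its differences were 1.42 ± 0.59 for HK against NK (called, adjusted p = 0.50) and 1.17 ± 0.61 for HC against NC (not called, adjusted p = 0.666). On both probes HC2, HC3, HC4 and HK2 were the 4 highest arrays and HC1 was among the 2 lowest. The array's own annotation lists the OVAR probes and AM181175 against each other's records.

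AM181175 followed the same order, with 1.79, 2.90 and 2.08 in NC, 2.18, 2.37, 1.73 and 1.96 in NK, 1.66, 4.90, 4.23, 3.78 and 2.76 in HC, and 2.96, 4.56, 2.63 and 3.44 in HK. HK and NK did not overlap, and the difference was 1.34 ± 0.59 (called, adjusted p = 0.541). For HC against NC it was 1.21 ± 0.61 (not called, adjusted p = 0.653). In all, 6 class I probes separated HK wholly from NK (M34675, M34676, both OVAR probes, AM181175 and U03092), and 1.6% of all tested probes did so with HK higher. None of the 15 separated HC from NC, which 2.54% of tested probes did with HC higher, and HC1 lay within or below the NC range on all 7 probes called.

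Of the comparisons between groups, AJ874681 and AJ874675 were called in HC against NC only. The difference between that comparison and HK against NK did not pass for either probe (-0.38 ± 0.91 and -0.20 ± 0.88, both with a 95% interval that holds 0). AJ874681 stood at 1.46, 2.64 and 1.99 in NC, 1.96, 1.97, 1.44 and 2.23 in NK, 2.06, 5.18, 4.02, 3.77 and 2.50 in HC, and 1.68, 4.34, 3.18 and 2.79 in HK. The HC arrays spanned more than 3 log2 units and overlapped NC. AJ874681 was 1.48 ± 0.65 higher in HC than in NC (called, adjusted p = 0.591) and 1.10 ± 0.63 higher in HK than in NK (not called, adjusted p = 0.68). AJ874675 gave 1.63, 2.46 and 1.96 in NC, 2.02, 1.57, 1.32 and 2.00 in NK, 2.05, 5.09, 4.01, 3.50 and 2.47 in HC, and 1.57, 4.27, 3.08 and 2.82 in HK. The respective differences were 1.41 ± 0.64 (called, adjusted p = 0.602) and 1.21 ± 0.62 (not called, adjusted p = 0.618).

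When the hypoxic and the normoxic groups were each averaged over ketamine, a comparison added after the values above were seen, 10 of 15 class I probes rose and all 15 were higher, with a median of 1.24 (0.59 to 1.68), while 5.24% of all tested probes were called higher. M34675 had the smallest adjusted p of the members (1.17 ± 0.27, adjusted p = 0.178, with 4 hypoxic arrays saturated), and no member passed after adjustment. U03092, which ranged from 1.42 to 5.08 over the arrays, AJ874683, which ranged from 1.21 to 4.86, and M34673 were called in this comparison alone, by 1.27, 1.27 and 1.68. The 5 class I probes that missed the threshold were M34672, M34674, AJ874684, EF489531 and TC16824, whose differences were 1.24, 1.06, 0.94, 0.75 and 0.69. AJ874684 ranged from -1.30 to 2.73 over the arrays and TC16824 from -3.23 to 0.02.

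The counts depended on single fetuses and on the slide. Without HC1 the count of members called in HC against NC went from 3 to 12, without NC2 to 6 and without HC5 to 5, while 10.8%, 5.04% and 9.73% of all tested probes were called in either direction, and it was 0 without any one of NC1, NC3, HC2, HC3 or HC4, with 6.05% to 7.81% called over all probes. For HK against NK it went from 5 to 11 without HK1 (6.62% of all tested probes), to 3 without NK4 and to 2 without any one of HK2, HK4 or NK3, with 7.23% to 11.9% over all probes. The arrays lay on 2 slides of 8, each holding all 4 groups. Within the first slide the median class I differences were 0.93 for HC against NC and 1.37 for HK against NK, and within the second they were 1.37 and 1.19. The second slide held 1 NC array (NC3), so its difference for HC against NC rests on 1 control fetus. Between NK and HK, deviations of same-numbered fetuses from their group means correlated with r of 0.19 to 0.34. Each such pair shared a slide, and 4 of 12 differently numbered pairs also had r above 0.1. For HK against NK the fit with the replicate block called 11 members in place of 5, all of class I and the 5 among them. In that fit 9.02% of all tested probes were called in either direction. With slide as a block, M34675 and AJ874675 lost their calls in HC against NC at differences of 0.87 and 1.44, AJ874681 kept its call and DQ659131 of class II gained one.

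**Figure D2:**
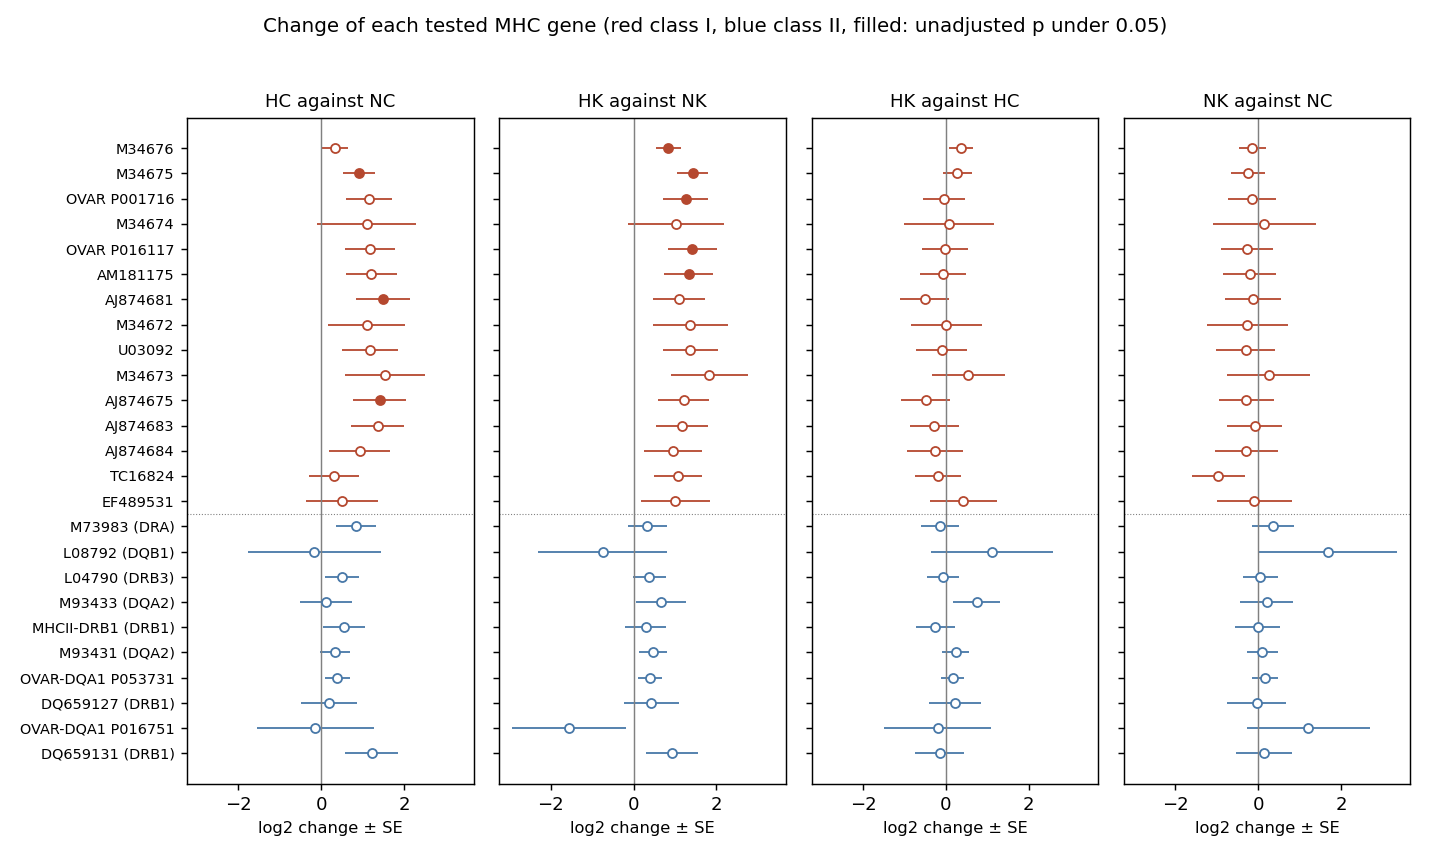
Log2 change and its SE for each of the 25 tested members in 4 comparisons, class I above the dotted line and class II below, each ordered by mean signal. All 15 class I points lie right of 0 in HC against NC and in HK against NK, and lie on both sides of 0 in HK against HC and NK against NC.

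Ketamine made no class I difference that passed the test, with or without hypoxia. In HK against HC, 0 of 25 members were called, whereas 6.92% of all tested probes were, and the class I median was -0.04 (-0.51 to 0.54), with 6 probes higher and 9 lower. Single arrays turned this balance, with 12 of 15 higher without HC2 (median 0.29), 11 without HC3 (0.12), 13 without HK1 (0.14), 9 without HC4 (0.04) and 9 without HK3 (0.13), and 3 of 15 higher without HC1 (-0.47). On the first slide alone 10 of 15 were higher (0.29) and on the second 1 of 15 (-0.37). The 95% intervals were wide. For AJ874681, which was saturated on no array, the difference was -0.51 with an interval from -1.80 to 0.78, and over the 15 class I probes the intervals reached from -2.27 to 2.43. In NK against NC, 0 of 25 were called, beside 1.09% of all tested probes, with a class I median of -0.20 and 13 of 15 lower in NK, a direction that turned without NC2 (12 of 15 higher, median 0.12). The ketamine difference after hypoxia minus that after normoxia passed for 0 of 25 members, beside 3.72% of all tested probes, with a class I median of 0.20. The 3 comparisons share groups and are not independent.

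Class II members were not called in any of the comparisons between groups. Of all tested probes, 8.03% were called in HC against NC and 8.7% in HK against NK. In HK against HC it was 6.92%, and in NK against NC 1.09%. A count of 0 among 10 probes lies near these shares. The class II median differences were 0.36 for HC against NC, 0.38 for HK against NK, 0.05 for HK against HC and 0.16 for NK against NC. In both hypoxia comparisons 8 of 10 were higher. Averaged over ketamine, 1 of 10 was called higher, the DRB1G1 allele DQ659131, beside the 5.24% of all tested probes called higher in that comparison.

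DRA is the conserved alpha chain that every DR molecule needs. It stood at -0.90, -1.21 and -0.99 in NC, -0.76, -0.53, -0.83 and -0.55 in NK, -1.70, 1.18, 0.16, 0.13 and -0.74 in HC, and -0.82, 0.51, -0.15 and -0.87 in HK. HC2, HC3, HC4 and HK2 were again the 4 highest arrays, and HC1 was the lowest of all 16. HC exceeded NC by 0.84 ± 0.49 (adjusted p = 0.701) and HK exceeded NK by 0.33 ± 0.47 (adjusted p = 0.922). All NK arrays were above all NC arrays, by 0.36 ± 0.51 (not called), a separation that 1.59% of all tested probes showed with NK higher.

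Of the arrays that led for DRA, HC2 and HK2 also led for the beta chains of DR. DRB3 (L04790) stood at -1.16, -1.47 and -1.85 in NC, -1.04, -1.12, -1.92 and -1.67 in NK, -1.70, 0.18, -1.08, -0.78 and -1.57 in HC, and -1.35, -0.10, -1.53 and -1.27 in HK. DRB1, read by the MHCII-DRB1 record, stood at -1.39, -1.21 and -2.46 in NC, -1.27, -1.25, -2.27 and -2.00 in NK, -1.79, 0.02, -1.23, -1.12 and -1.60 in HC, and -1.79, -0.05, -2.41 and -1.35 in HK. The DRB1C1 allele DQ659127 ranged from -4.64 to -1.03. In each of the 3 the 2 highest arrays were HC2 and HK2, and the groups overlapped. DRB1 differed by 0.54 ± 0.51 for HC against NC (adjusted p = 0.835) and by 0.30 ± 0.50 for HK against NK (adjusted p = 0.935). DQ659131, dim and well above background on 13 arrays, stood at -6.29, -4.99 and -5.86 in NC, -4.78, -6.11, -6.97 and -4.40 in NK, -4.51, -2.69, -4.92, -4.67 and -5.67 in HC, and -4.29, -4.25, -5.17 and -4.84 in HK. Its groups overlapped, and averaged over ketamine it was 1.07 ± 0.45 higher after hypoxia (called, adjusted p = 0.324).

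**Figure D3:**
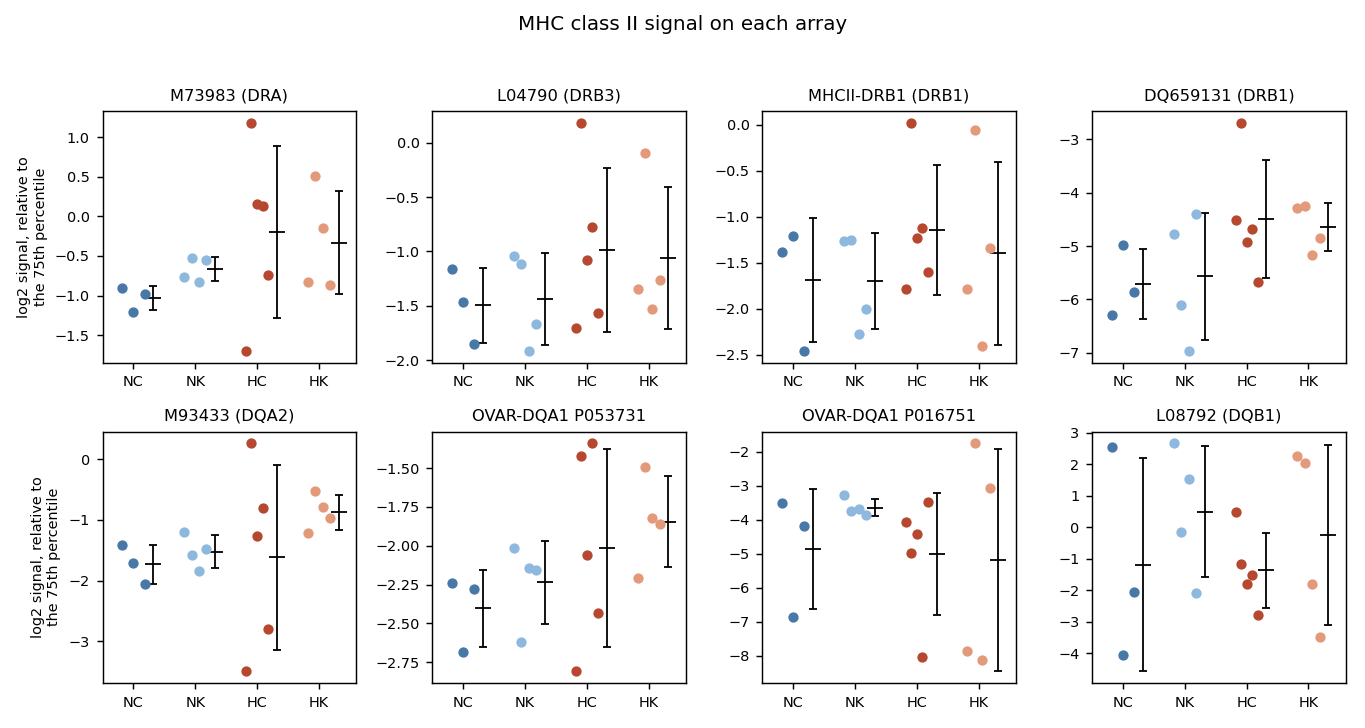
Class II signal on each array, as log2 relative to the 75th percentile of the array, for 8 probes with the mean and SD of each group. The vertical scales differ between panels; OVAR-DQA1 probe A_70_P016751 and the DQB1 record L08792 span more than 6 log2 units within the study, and the DQA1 probe A_70_P053731 spans 1.47.

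The alpha chains of DQ were read by 4 probes. M93433 (DQA2) stood at -1.42, -1.71 and -2.06 in NC, -1.19, -1.58, -1.85 and -1.48 in NK, -3.49, 0.27, -1.26, -0.80 and -2.79 in HC, and -1.21, -0.52, -0.79 and -0.96 in HK. HC held both the highest and the lowest array, and the difference between HK and HC was 0.75 ± 0.57 (adjusted p = 0.823). M93431 (DQA2) ranged from -3.04 to -1.25.

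OVAR-DQA1 was read by 2 probes of a single record, and they did not follow each other (r = -0.11 over the 16 arrays). Probe A_70_P053731 stood at -2.24, -2.69 and -2.28 in NC, -2.01, -2.62, -2.14 and -2.16 in NK, -2.81, -1.42, -2.06, -1.34 and -2.43 in HC, and -2.21, -1.49, -1.82 and -1.86 in HK, with HC4, HC2 and HK2 the highest. Probe A_70_P016751 stood at -3.52, -6.86 and -4.20 in NC, -3.27, -3.75, -3.69 and -3.88 in NK, -4.06, -4.98, -4.43, -8.05 and -3.49 in HC, and -7.85, -1.75, -8.11 and -3.08 in HK. NC2, HC4, HK1 and HK3 were lower than the other arrays by more than 1 log2 unit, and the probe was well above background on 12 arrays.

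**Figure D4:**
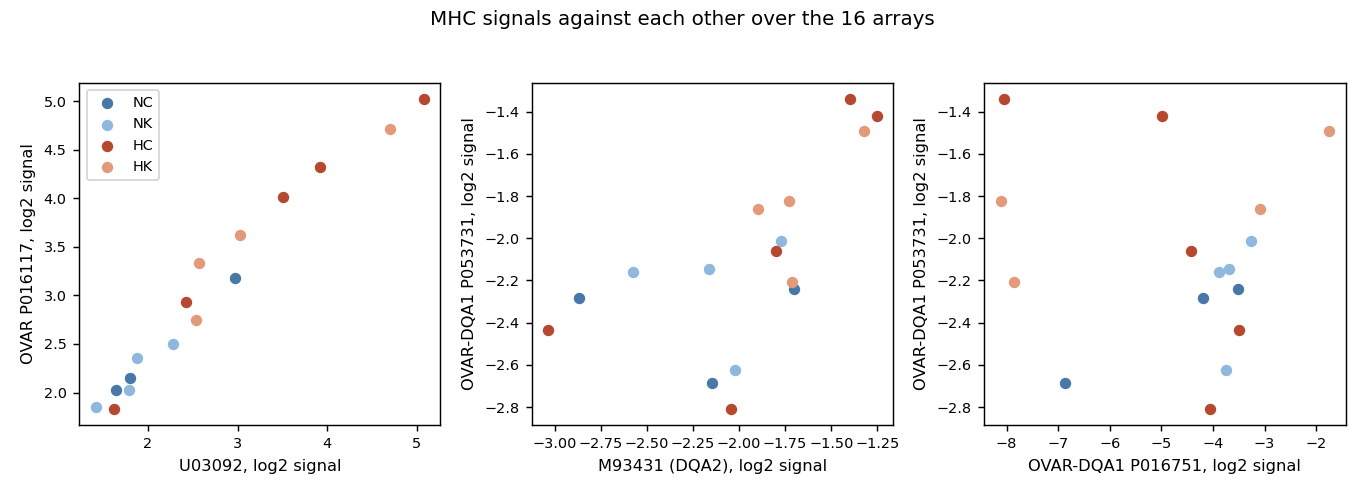
Signals of paired probes over the 16 arrays, with each point a fetus colored by group and both axes in log2 relative to the 75th percentile. The class I pair that differs at 4 of 60 bases lies on a line (r = 0.98), the DQA2 and DQA1 pair that also differs at 4 bases has r = 0.63 (0.82 with the mean of each slide subtracted), and the 2 probes of OVAR-DQA1 show no such line (r = -0.11).

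DQB1 (L08792), the beta chain of DQ, had the widest range of the members, 6.74 log2 units. It stood at 2.55, -4.06 and -2.07 in NC, 2.67, -0.15, 1.53 and -2.08 in NK, 0.48, -1.17, -1.82, -1.52 and -2.79 in HC, and 2.27, 2.05, -1.81 and -3.49 in HK. NC1, NK1, NK3, HK1 and HK2 were above 1.5 and all other arrays below 0.5, and the differences for HC against NC and HK against NK were -0.17 ± 1.60 (adjusted p = 0.982) and -0.74 ± 1.55 (adjusted p = 0.957).

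MHC probes as a whole varied far more between fetuses of a group than most of the array did. The SD within groups had a median of 0.94 for class I and 0.83 for class II against 0.24 over all tested probes, and each of the 25 was above that overall median. The range over the 16 arrays exceeded 1 log2 unit for 25 of 25 members and for 43.4% of all tested probes. DQB1 was at the 99.9th percentile of within-group SD, OVAR-DQA1 A_70_P016751 at the 99.8th and M34674 at the 99.5th.

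Among class I, the widest were M34674, M34673 and M34672, of the set read near the 3′ end. M34674 stood at 0.51, 3.76 and 3.21 in NC, 0.92, 3.42, 3.05 and 3.18 in NK, 0.36, 5.24, 5.25, 5.24 and 1.88 in HC, and 2.49, 5.33, 3.96 and 2.91 in HK. NC1, NK1 and HC1 were under 1 and the others at 1.88 or above, and M34674 was saturated on HC2 and HC3. M34673 gave -0.06, 1.93 and 2.82 in NC, 0.29, 1.38, 2.27 and 3.32 in NK, 1.82, 5.17, 2.94, 4.26 and 1.33 in HC, and 2.51, 4.96, 4.15 and 2.95 in HK, with NC1 and NK1 the 2 lowest. M34672 gave 0.60, 4.08 and 1.74 in NC, 1.03, 3.49, 1.02 and 1.97 in NK, 2.05, 5.21, 3.70, 3.38 and 1.86 in HC, and 2.44, 5.01, 2.39 and 3.16 in HK, again with NC1 the lowest and with NK3 and NK1 next. EF489531, a partial coding record, was highest in HK1 (-1.40) and lowest in NK3 (-5.63).

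**Figure D5:**
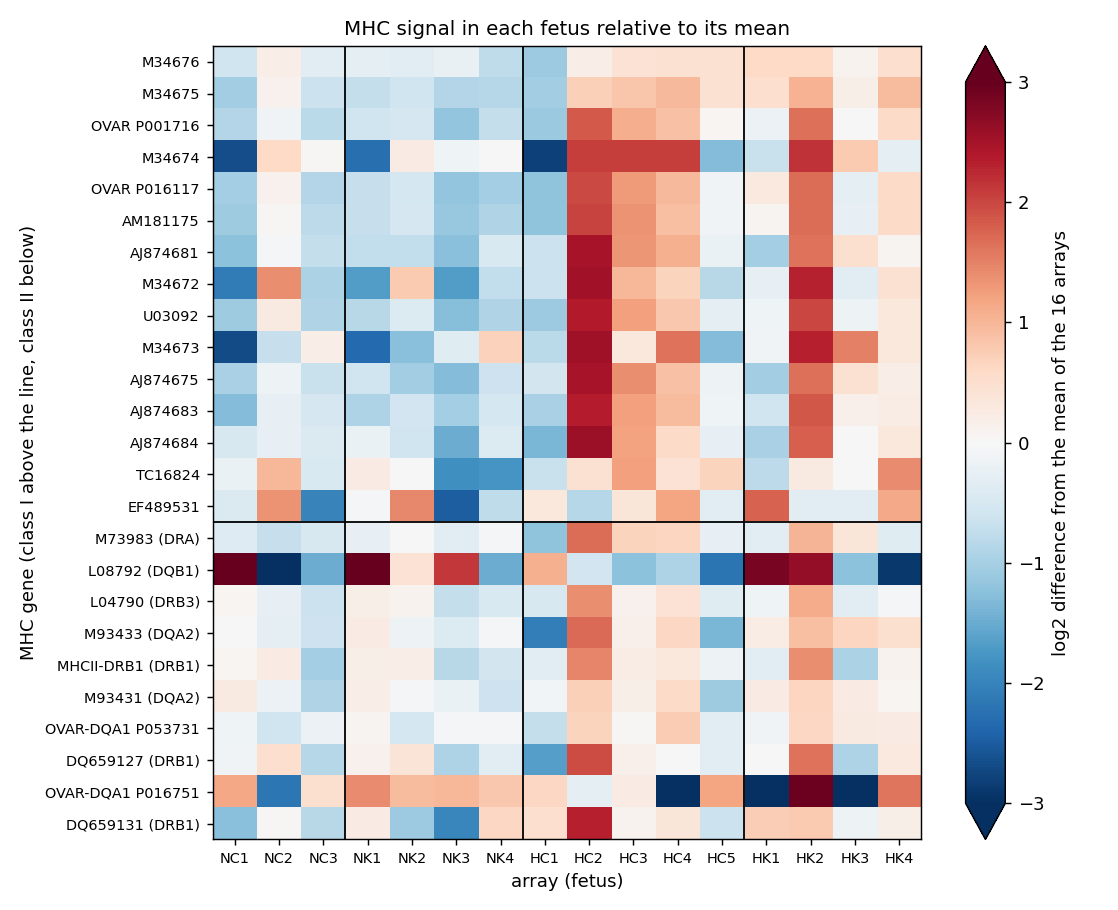
Log2 difference of each tested member from its own mean over the 16 arrays, with columns for fetuses by group, rows ordered by mean signal within class, and the color scale ending at 3 in either direction. HC2, HC3, HC4 and HK2 are high for most class I rows, and HC1 is low like the normoxic columns; NC1 and NK1 have like columns down the whole map.

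Averaged over the 15 class I probes, each taken from its own mean, HC2 stood at 1.72, HK2 at 1.49, HC3 at 1.09 and HC4 at 0.97. The other hypoxic arrays were HK4 at 0.49, HK3 at 0.16, HK1 at -0.17, HC5 at -0.22 and HC1 at -0.99. The normoxic arrays ran from -1.18 (NC1) to 0.24 (NC2), and 6 of those 7 were below 0. For class II the highest were HK2 at 1.36 and HC2 at 1.11.

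Taken over the 25 members, with each member's mean removed, the profiles of 2 arrays correlated with r between -0.85 and 0.97 over the 120 pairs of arrays (median -0.05). NC1 and NK1 were the most alike (r = 0.97), followed by HC4 and HK3 (0.90) and HC5 and HK4 (0.74). Each of these 3 pairs joins a saline and a ketamine fetus of the same oxygen treatment, and the arrays of each pair shared a slide. Next came NK1 and HC1 (0.64) and NC2 and HC4 (0.61), which join fetuses of different oxygen treatments. NC1 and NK1 differed by 0.34 log2 units per member on average. Whether any of the 3 most alike pairs were littermates is not given in the labels.

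The machinery that loads class I was listed with other antigen processing genes, of which 12 of 37 were on the array and 11 were tested. In HC against NC 4 rose and 0 fell, where 4.35% of all tested probes were called higher, the share that also stands beside the other lists in that comparison. B2M (beta-2-microglobulin) had group means of 4.04 (NC), 4.11 (NK), 4.73 (HC) and 4.78 (HK). It rose by 0.69 ± 0.24 after hypoxia alone (adjusted p = 0.483) and by 0.67 ± 0.24 under ketamine (adjusted p = 0.434), and HK differed from HC by 0.05 ± 0.22 (adjusted p = 0.977). PSMB8, a subunit of the immunoproteasome, rose by 1.46 ± 0.55 in HC against NC (adjusted p = 0.529) and differed by 0.99 ± 0.54 in HK against NK (not called, adjusted p = 0.65). PSME2, part of the proteasome activator, rose by 0.71 ± 0.24 (adjusted p = 0.446) and CD86, a costimulator of T cells, by 0.76 ± 0.32 (adjusted p = 0.572), both in HC against NC. In HK against NK, FCGRT, the class I like receptor that carries immunoglobulin G, fell by 0.23 ± 0.10 (adjusted p = 0.541), where 6.3% of all tested probes were called lower. None of these passed after adjustment. B2M alone of the 11 was called higher in HK against NK, beside 2.39% of all tested probes. In HK against HC and NK against NC 0 of the 11 were called, beside 6.92% and 1.09% of all tested probes. With 11 genes, a count of 0 lies near those 2 shares.

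Of 39 listed interferon genes 11 were on the array and tested, and 2 rose in HC against NC. CXCL10, a chemokine induced by interferon, rose by 4.43 ± 1.74 (adjusted p = 0.532) and IRF1, a transcription factor of the class I promoter, by 2.81 ± 0.80 (adjusted p = 0.369). IFNG, interferon gamma itself, was well above background on 10 arrays and differed by 0.55 ± 0.60 in HC against NC (adjusted p = 0.859).

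Markers of cells that carry MHC moved with some of the same comparisons. Of 22 listed microglia and macrophage genes 5 were on the array and tested, and 4 rose in HC against NC (CD14, ITGAM, FCGR1A and LYZ, by 1.35, 0.75, 1.01 and 2.02). Their adjusted p values were 0.591, 0.591, 0.559 and 0.591. CD14 and FCGR1A then fell in HK against HC, by 1.35 and 0.89 (adjusted p = 0.707 and 0.716), where 3.94% of all tested probes were called lower. The others were not called there, with ITGAM at -0.09, ITGB2 at -0.32 and LYZ at 0.51. The summed linear level of the 5 genes, in multiples of the 75th percentile, was 0.98 to 1.39 in NC, 0.98 to 1.31 in NK, 1.05 to 3.91 in HC and 0.93 to 1.80 in HK. T cell genes were at 0.22 to 0.33 in NC, 0.27 to 0.35 in NK, 0.31 to 0.62 in HC and 0.24 to 0.57 in HK over 4 tested genes, with CD3D and CD5 called higher in HC against NC, and with CD4 well above background on 2 arrays and CD28 on 0. Endothelium, another site of class I, had 5 tested genes of 11 listed, summing to 0.88 to 1.08 in NC, 0.86 to 1.16 in NK, 1.01 to 3.82 in HC and 0.99 to 1.92 in HK. SELP, an adhesion molecule of activated endothelium, rose in HC against NC by 4.71 ± 1.10 (adjusted p = 0.341) and in HK against NK by 3.24 ± 1.06 (adjusted p = 0.389). ICAM1 rose in HC against NC by 2.42 ± 0.80 (adjusted p = 0.443). PECAM1, FLT1 and SELE were not called in either comparison and differed by 0.03, 0.69 and -0.28 in HC against NC. No gene of astrocytes, blood or choroid plexus was called in the comparisons between groups, and of the pituitary list LHB was called higher in HK than in HC and NK, by 0.19 and 0.21 (adjusted p = 0.716 and 0.499). None of the calls in these cell lists passed after adjustment over all tested probes. Of the called genes, CD3D was well above background on 11 arrays, SELP on 12, ITGAM and ICAM1 on 13 and LYZ on 14. SELP had means of -5.73 in NC and -6.06 in NK, near background, so the size of its change is uncertain. Listed markers of B cells, natural killer cells, dendritic cells and neurons had no named probe, and the part of any of these cells in the MHC signal was not tested.

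Among 1117 probes that carry another gene's name, those given here as most like M34676 over the 16 arrays were ITGAM (r = 0.69), CLEC6A (0.64), PSMB8 (0.63) and PFK-L (0.62). Most like DRA were CYBA (r = 0.86), CLEC6A (0.85), FCER1G (0.84), GNLY (0.83) and CD86 (0.82). With the mean of each slide subtracted these r values were between 0.63 and 0.69 for M34676 and between 0.82 and 0.86 for DRA. The arrays share the groups, and these values are descriptions without a test. M34676 was saturated on 7 arrays, all of them hypoxic, so its highest readings, which enter its r values, are lower limits. Between members, r had a median of 0.76 over the 105 pairs of class I probes, 0.53 over the 45 pairs of class II probes and 0.57 over the 150 pairs of a class I and a class II probe.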

How the data were processed

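Labelled RNA from 16 fetal hypothalami was hybridized to 1-color Agilent sheep arrays. The deposited files are scanner output of Agilent's Feature Extraction 10.1.1.1, per the file headers, with an intensity per spot that this software had corrected for background and that the authors had not yet normalized between arrays. The authors also deposited log2 values of the same arrays, used as an alternative. Here the 536 control spots and outlier spots were left out, the processed signal was put on a log2 scale, each array was centered on its 75th percentile and repeated spots were averaged per probe. With R 4.3.3 and limma 3.58.1 a model of 4 groups was fitted to all 16 arrays, with two-sided moderated tests over 12246 probes. A call is an unadjusted p under 0.05, the threshold of the study, and Benjamini-Hochberg adjustment ran over all tested probes. The fit was checked on simulated data.

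The members and lists were chosen with earlier results of these data known. Class was read from the description, or from the locus where no class was written. Values on every array are given for members called between 2 groups and for the brightest probe of each locus, and for further wide-ranging members chosen after their values were seen; the rest are given by range. Genes most like M34676 and DRA were the 5 with the highest Pearson r, of which 1 is not reported here. Replicate numbers were checked for pairing by the correlation of deviations from group means. It exceeded 0.1 in 15 of 21 same-numbered pairs, in all 3 of NC with NK and all 4 of NK with HK, and every such pair shared a slide. No genome build is given in the sources used here, so no coordinates are reported, and the number of arrays limits the precision. Of 750 RefSeq records on the array, 726 were given a gene name by RefSeq's gene table for ARS-UI_Ramb_v3.0.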

Additional observations from a re-analysis of the deposited data

Results flagged for a closer look

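In 3 of 75 tests of a group of 4 or 5 arrays, one array lay far from the others by Dixon's criterion, and chance alone gives about 1 in 20. HC1 was low for M34676 (A_70_P001546), at 3.86 where the nearest HC array was at 5.16, and for M34675 (A_70_P016816), at 3.48 where the nearest was at 4.97. NK1 was low for M34674 (A_70_P056847), at 0.918 where the nearest NK array was at 3.05. Both flagged HC1 values belong to probes of the set that shares stretches of sequence. The readings they were set against were saturated on HC2, HC3, HC4 and HC5 for M34676 and on HC2, HC3 and HC4 for M34675.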

How the results depend on the processing

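Quantile normalization, normexp with quantile normalization, the deposited values, both filters and a slide block left the counts of called members within 1.5 times those reported (3 for HC against NC, 0 for HK against HC, 0 for NK against NC, 5 for HK against NK, 0 for the interaction and 11 averaged over ketamine). With the slide block, though, 1 of the 2 members called in HC against NC was among the 3. With the replicate block the counts were 11 in HK against NK and 12 in HC against NC, 10 of the 12 in class I. That fit called 9.02% and 9.64% of all tested probes in either direction, beside 8.7% and 8.03% in the main fit. None of the 3 same-numbered pairs of HC with NC correlated above 0.1, though, and the block changed no other count by over 1.5 times. Array weights gave 5 for HC against NC and 10 for HK against NK, with 10.1% and 13.5% of all tested probes called. Fitting only the 2 groups gave 0 for HC against NC, 11 for HK against NK and 1 for NK against NC (DRA). There 6.58%, 8.45% and 1.8% of all tested probes were called. Slide 1 alone, added after the data were seen, gave 1 for HC against NC, 0 for HK against NK and 2 averaged over ketamine. On that slide 5.81%, 3.98% and 8.41% of all tested probes were called. For slide 2 alone no counts of called members are given, because the fit there held 1 NC array. The class I median for HK against NK was 1.37 on slide 1 and 1.19 on slide 2. Leaving out 1 array in turn gave 0 to 12 for HC against NC, 2 to 11 for HK against NK, 0 to 1 for HK against HC (1 without HC2, M93433), 0 to 1 for NK against NC (1 without NC1, DQB1) and 8 to 14 averaged over ketamine. Averaged over ketamine, these fits called 10.1% to 15.9% of all tested probes, beside 13.2% in the main fit. In HK against HC without HC2 it was 8.56%, and in NK against NC without NC1 1.91%. All 15 class I probes were higher in HC than NC in 17 of 19 alternatives, with 14 without NC3 and 12 on slide 1 alone, and in HK than NK in 18 of 19, with 14 on slide 1 alone. The class I median stayed between 0.82 and 1.60 and between 0.87 and 1.49 in these comparisons, but ran from -0.47 to 0.29 in HK against HC and from -0.48 to 0.12 in NK against NC. No called change reversed its direction. The causes of the moved counts were not tested. Saturated spots give lower limits for 5 class I probes, and dim class II probes such as DQ659131 lie near background.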
